A study of Homo sapiens with 6 samples.

Results

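The genes described here are the long intergenic non-coding RNAs (LINC genes), taken as every row of the deposited gene tables whose symbol is LINC followed by digits. The rule found 135 of 23340 gene rows, and it used the name alone, not a measured value. RNA-seq was done on total RNA from 3 established human cell lines, with 2 libraries a line, 1 labelled 25M reads and 1 labelled deeper. MCF10A is an untransformed mammary epithelial line, grown here with EGF, hydrocortisone, cholera toxin, insulin and horse serum and given no cytokine. HT-29 is a colon carcinoma line, and its label states 200 U/ml of interferon-γ (IFN-γ) for 24 h. MDA-MB-436 is a breast carcinoma line with no treatment stated. No untreated HT-29 library was analysed here, so line and IFN-γ cannot be told apart in any comparison that includes HT-29 cells. Which comparisons these are depends on the labels, which are examined below. The recovered reads came to 18.3M and 69.4M in MCF10A, 18.4M and 50.1M in the libraries labelled HT-29, and 16.7M and 56.3M in those labelled MDA-MB-436. The deeper MCF10A library is called 100M in its title and 50M in its sample type. The labels do not state that a line's 2 libraries were made from separate cultures, and a p-value here therefore reflects the variation of these libraries alone, which may be technical.

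The HT-29 and MDA-MB-436 labels went against the lines' defining genes. KRT20, an intestinal keratin, stood at 29900 and 30880 normalised counts under the MDA-MB-436 label and at 0 and 0.547 under the HT-29 label. VIL1, the brush border protein villin, stood at 2054.5 and 2198 in the former and at 0 in both of the latter. VIM, the mesenchymal filament vimentin, stood at 36599 and 35267 under the HT-29 label and at 16.5 and 7.39 under the MDA-MB-436 label. The summed level of 6 genes induced by IFN-γ (IRF1, GBP1, CXCL10, CIITA, HLA-DRA and IDO1) was 181883 and 181857 under the MDA-MB-436 label, 4346 and 4341 under the HT-29 label, and 487 and 509 in MCF10A. The labels are kept below as deposited, always as "labelled". If they were exchanged, the direction of the HT-29 against MDA-MB-436 comparison would turn and the other 2 comparisons would trade names, while every value would stay with its library. The 25M libraries of both labelled lines also held more of the MCF10A keratin KRT14, which stood at 225570 and 218996 in MCF10A, at 91.5 and 2.74 in the libraries labelled HT-29, and at 84.4 and 0.616 in those labelled MDA-MB-436. The part of such traces in LINC genes seen with 1 read outside their main line was not tested.

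Long non-coding RNAs are transcripts longer than small RNAs that hold no long reading frame. Those called intergenic are transcribed from their own loci, usually by RNA polymerase II, and most are spliced and polyadenylated. As a class they are known for low levels and for marked differences between cell types, and some act on the gene beside them, while others host small RNAs or encode microproteins. A LINC symbol is a placeholder, and several of these loci were renamed once a function or a reading frame was known.

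In RefSeq, 103 of the 135 symbols matched a current symbol, 29 an older one and 3 (LINC00086, LINC00087 and LINC00315) none. RefSeq now lists 120 of the genes as long non-coding RNA, 11 as protein-coding and 1 as a transcribed pseudogene. The 11 coding entries hold some of the most abundant members, among them LINC00493 (SMIM26) and LINC00116 (MTLN), which encode mitochondrial microproteins, and LINC00094 (BRD3OS). The other 8 are LINC00085 (SPACA6), LINC00176 (C20orf204), LINC00238 (CCDC196), LINC00282 (TMEM272), LINC00341 (SYNE3), LINC00483 (ANKRD40CL), LINC00514 (GREP1) and LINC00521 (CCDC197). Of 129 members in GENCODE v29, 39 had exons that overlap another gene and 25 had exons that overlap a gene on the opposite strand. The sources used here do not say whether counting used strand, and without it the reads of such a pair cannot be told apart. LINC00094 (against BRD3), LINC00294 (against CSTF3), LINC00535 (against FAM92A), LINC00511 and LINC00526 are among the genes named below that carry this limit.

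Promoters are shown for 5 genes on which the results turn: for each labelled line, the 2 restricted genes with the most reads among those with an entry, and LINC00346, which had the largest change from MCF10A on the log2(normalised count + 1) scale. Each runs from 250 bases before to 50 bases after the RefSeq start (GRCh38.p14), 5′ to 3′ on the gene's strand, and capitals mark matches on either strand to 7 motifs.
LINC00261, chr20:22578593-22578892, minus strand: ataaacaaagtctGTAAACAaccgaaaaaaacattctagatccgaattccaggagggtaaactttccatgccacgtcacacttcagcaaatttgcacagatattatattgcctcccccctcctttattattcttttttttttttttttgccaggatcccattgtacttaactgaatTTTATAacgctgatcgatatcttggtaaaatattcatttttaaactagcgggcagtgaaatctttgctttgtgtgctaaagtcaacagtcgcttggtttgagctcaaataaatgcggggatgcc
LINC00114, chr21:38773428-38773727, minus strand: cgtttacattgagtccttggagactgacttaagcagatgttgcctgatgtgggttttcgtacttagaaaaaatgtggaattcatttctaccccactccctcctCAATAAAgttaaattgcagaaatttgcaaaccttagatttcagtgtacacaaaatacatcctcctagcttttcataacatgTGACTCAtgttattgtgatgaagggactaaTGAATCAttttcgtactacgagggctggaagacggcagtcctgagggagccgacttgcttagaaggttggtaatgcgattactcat
LINC00173, chr12:116533172-116533471, plus strand: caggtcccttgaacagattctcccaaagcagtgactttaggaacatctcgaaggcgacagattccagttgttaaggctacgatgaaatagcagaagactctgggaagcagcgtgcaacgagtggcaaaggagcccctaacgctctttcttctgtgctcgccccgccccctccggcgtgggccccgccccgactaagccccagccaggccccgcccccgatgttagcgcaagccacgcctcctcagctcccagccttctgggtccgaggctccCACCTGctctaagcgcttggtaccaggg
LINC00488, chr3:109177915-109178214, plus strand: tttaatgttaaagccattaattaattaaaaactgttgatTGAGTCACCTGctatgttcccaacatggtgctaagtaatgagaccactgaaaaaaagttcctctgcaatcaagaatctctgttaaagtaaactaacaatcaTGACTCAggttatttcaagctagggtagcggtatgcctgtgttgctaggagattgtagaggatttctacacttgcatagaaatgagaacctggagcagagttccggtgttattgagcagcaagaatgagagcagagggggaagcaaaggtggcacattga
LINC00346, chr13:110870259-110870558, minus strand: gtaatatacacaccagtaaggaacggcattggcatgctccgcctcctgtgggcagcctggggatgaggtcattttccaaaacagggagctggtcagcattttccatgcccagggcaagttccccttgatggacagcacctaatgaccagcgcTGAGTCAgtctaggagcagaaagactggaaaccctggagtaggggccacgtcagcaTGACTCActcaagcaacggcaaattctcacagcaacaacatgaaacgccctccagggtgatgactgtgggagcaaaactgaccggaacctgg

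The motifs searched, on both strands, were the TATA box TATAAA, the STAT site TTCNNNGAA, the interferon-response core (GAAA and GAAA with any 2 bases between), the E-box CACCTG bound by ZEB and SNAI factors, the forkhead site TGTTTAC, the AP-1 site TGANTCA and the CDX site TTTATNG. LINC00261 held 1 forkhead match and 1 TATA match, the first 237 bases before the start. LINC00114 held 2 AP-1 matches and 1 CDX match. LINC00173 held 1 E-box match, which lies just after the start. LINC00488 held 2 AP-1 matches and 1 E-box match, and the E-box shares bases with the first AP-1 match. LINC00346 held 2 AP-1 matches. Among all 27305 promoters, 3.41% held the forkhead letters, 7.76% the AP-1 letters, 10.1% the CDX letters, 20.6% the E-box letters and 12% the TATA letters. Among the 99 LINC promoters with an entry, the shares were 4.04%, 17.2%, 12.1%, 23.2% and 15.2%. The STAT letters occurred in 11.1% of LINC promoters and 7.88% of all, and the interferon-response core in 2.02% and 3.65%. A match is a description of letters and not a bound site. The median GC content was 53.3% in LINC promoters and 58.3% in all, and the median number of CpG dinucleotides was 7 and 14. The 30 LINC genes that had an entry and were among the 43 tested for differences had a median of 13.5 CpG. The 23 with an entry and no read in any library had 5.

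A total of 104 of the 135 LINC genes had at least 1 recovered read in some library, 30 had a read in all 6, and 31 had none. In the deepest library, 0 reads still allows up to 3 reads in 69.4M, so absence cannot be told from a very low level. By line, reads were found for 61 genes (45.2%) in MCF10A, 91 (67.4%) under the HT-29 label and 75 (55.6%) under the MDA-MB-436 label. Of all 23340 gene rows, 66.4% and 72.6% had a read in the 25M and the deeper library of MCF10A. The shares were 75.2% and 79.6% in the libraries labelled HT-29, and 67.7% and 72.5% in those labelled MDA-MB-436. All 3 lines shared 48 of them. A further 18 had reads only under the HT-29 label, with a median of 5.5 reads, 9 only under the MDA-MB-436 label, with a median of 3, and 2 only in MCF10A. Most of these exclusive genes rest on a handful of reads, since 5 of the 18, 1 of the 9 and neither of the 2 reached 10 reads. The share of all genes with reads in 1 line alone is not given here. LINC genes took 0.0158% and 0.0155% of the reads in MCF10A, 0.0263% in both libraries labelled HT-29 and 0.0168% in both labelled MDA-MB-436. Without the 11 members that RefSeq lists as coding, the shares were 0.00711% and 0.00650%, 0.0189% in both, and 0.0106% and 0.0104%.

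More reads brought more LINC genes into view in every line, but each gain consisted of genes with few reads. With at least 1 read, 47 LINC genes were found in the 25M library of MCF10A and 56 in the deeper one. The numbers were 75 and 87 under the HT-29 label, and 56 and 69 under the MDA-MB-436 label. Net gains of 19.1%, 16% and 23.2% stood beside gains of 7.57%, 4.29% and 5.32% among protein-coding genes in the same order of lines. Genes named as antisense gained 10.5%, 15.2% and 15.1%, so a larger gain than in coding genes was not particular to LINC genes. Genes found only in the deeper library numbered 14, 16 and 19, and none of them had more than 6 reads there. Going the other way, 5, 4 and 6 genes had a read only in the 25M library. Thinning the deeper library to the reads of the 25M library left an expected 44.5, 72.5 and 54.6 LINC genes, beside 47, 75 and 56 observed. At 16.7M reads in every library, the expected numbers were 46.2 and 43.6 in MCF10A, 73.8 and 71.0 under the HT-29 label, and 56 and 54.6 under the MDA-MB-436 label. The order of the lines was therefore the same at equal depth. It was not particular to LINC genes. Over all 23340 gene rows, the expected numbers at that depth were 15399 and 15377 in MCF10A. They were 17448 and 17421 under the HT-29 label, and 15809 and 15679 under the MDA-MB-436 label. At a minimum of 10 reads the numbers were 20 and 31, 31 and 41, and 24 and 37.

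**Figure D1:**
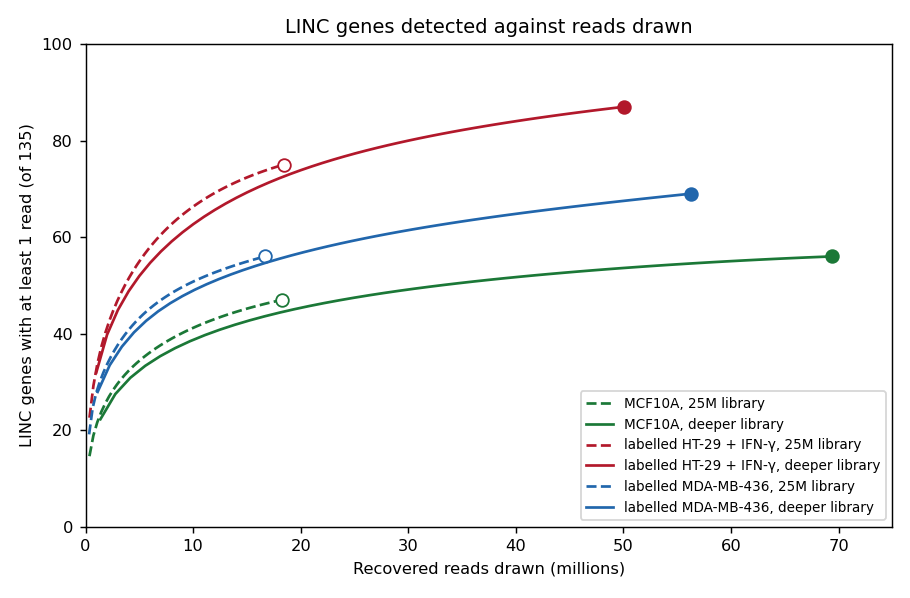
Expected number of LINC genes with at least 1 read (vertical axis, of 135) against recovered reads drawn from a library (horizontal axis); lines are the expectation from thinning without replacement, open points the full 25M libraries and filled points the full deeper ones. The 2 curves of a line lie within 3 genes of each other at the 25M total (44.5 and 47 in MCF10A), and the libraries labelled HT-29 lie above the others at equal depth. Over all gene rows, the libraries labelled HT-29 were also highest at equal depth.

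Depth changed detection, and no LINC gene was called for a change in level with depth. In the fit of the deeper against the 25M libraries with line as a block, limma called 0.0% of the 15638 genes tested at adjusted p below 0.05, and 0 of the 43 LINC genes among them. At an unadjusted p below 0.05 there was 1 LINC gene by limma, 1 by edgeR and 0 by DESeq2, and neither other tool called a LINC gene. Counts within a line were set against the split of reads by depth with a chi-square of 1 degree of freedom for each gene of at least 20 reads. Above 3.84 were 4 of 25 LINC genes in MCF10A (LINC00152, LINC00339, LINC00493 and LINC00514), 0 of 37 under the HT-29 label and 1 of 33 (LINC00511) under the MDA-MB-436 label, beside 8.14%, 14.0% and 13.4% of all genes. LINC00152, for instance, stood at 519 normalised counts in the 25M library of MCF10A and at 417 in the deeper one.

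A few genes made up most of the LINC signal in each line. The summed LINC level was 5339 normalised counts in MCF10A, 7234 under the HT-29 label and 5809 under the MDA-MB-436 label, and the top 5 genes held 71.4%, 53.1% and 56.3% of it. The 11 members listed as coding held 56.5%, 28.0% and 37.7%. LINC00493 (SMIM26) led in MCF10A, with 1537 and 1671 normalised counts, and under the MDA-MB-436 label, with 1328 and 1356, and stood at 383 and 428 under the HT-29 label. LINC00152 (CYTOR, an RNA linked to cytoskeleton and proliferation) led under the HT-29 label, with 1296 and 1289, and stood at 519 and 417 in MCF10A and at 482 and 485 under the MDA-MB-436 label. It has a near-identical copy elsewhere (MIR4435-2HG), so the split of reads between the copies is uncertain. Per kilobase of the length that the deposited RPKM implies, LINC00493 stood at 3267 normalised counts in MCF10A, 825 under the HT-29 label and 2733 under the MDA-MB-436 label, and LINC00152 at 731, 2020 and 756. On that scale no other LINC gene exceeded LINC00493 in MCF10A or under the MDA-MB-436 label, or LINC00152 under the HT-29 label. LINC00116 (MTLN) followed in MCF10A, with 788 and 747 normalised counts, then LINC00094 (BRD3OS), with 496 and 484.

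**Figure D2:**
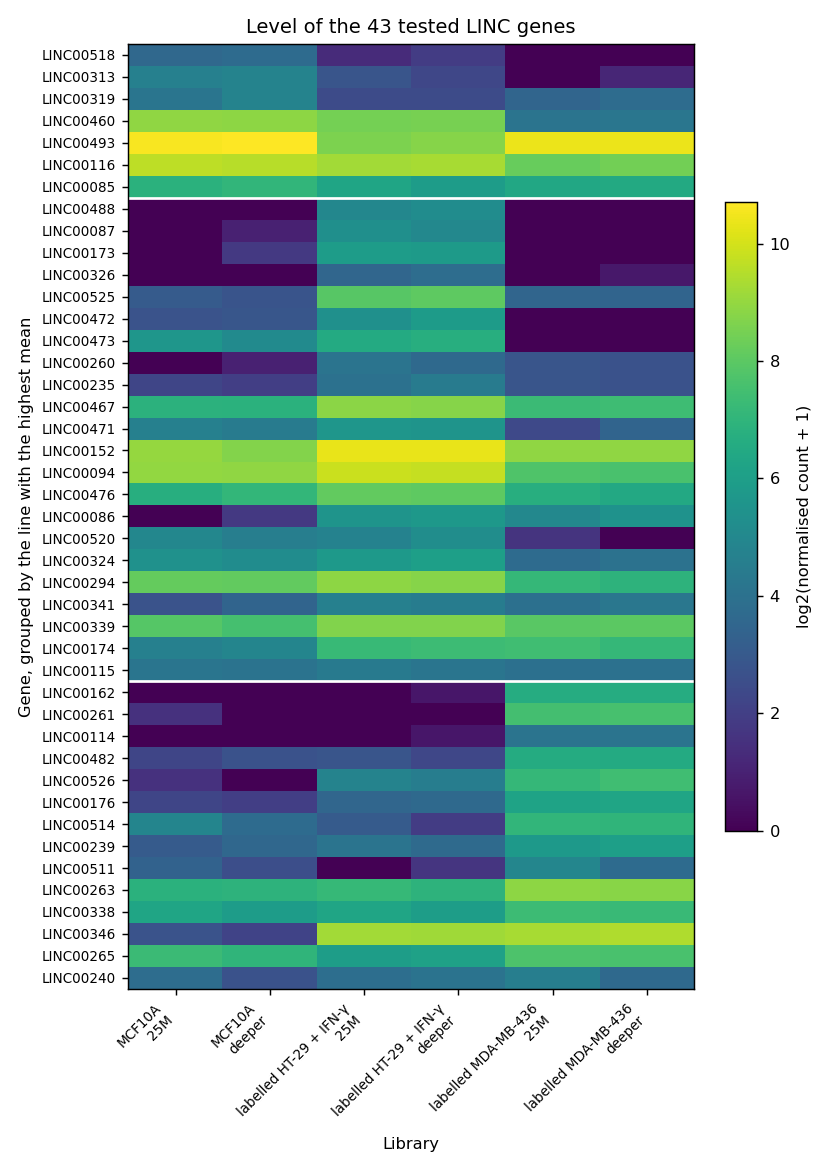
Level of the 43 tested LINC genes (rows, grouped between white lines by the line with the highest mean) in each of the 6 libraries (columns), as log2(normalised count + 1) by colour. Of the 43, 7 were highest in MCF10A, 22 under the HT-29 label and 14 under the MDA-MB-436 label. Among coding genes with a read, tested or not, the shares were 27.8%, 38.9% and 33.3%. The split is partly set by the filter, since 15 of the 43 reached its minimum in 1 line alone. The 2 libraries of a line resemble each other.

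Differences between the lines were tested for the 43 LINC genes with at least 10 normalised counts in at least 2 libraries. The other 61 detected genes, with a median of 6 reads over all libraries and no more than 33, were too low to test. Because a gene can pass through the line where it is high, 15 of the 43 reached the minimum in both libraries of 1 line alone. Their counts of differences and their p-values below are partly set by that filter, and describe levels only. In MCF10A alone these were LINC00313 and LINC00518. Under the MDA-MB-436 label alone they were LINC00114, LINC00162, LINC00261, LINC00482 and LINC00511. Under the HT-29 label alone they were LINC00087, LINC00173, LINC00235, LINC00260, LINC00326, LINC00472, LINC00488 and LINC00525. A gene was called where limma's adjusted p over all genes was below 0.05 and the change was at least 1 on the log2 scale. Folds below are ratios of pooled reads with 95% intervals, which cover counting error only, and log2 changes are on the log2(normalised count + 1) scale, which understates changes of low genes. The 3 comparisons share libraries with each other, so they are not independent.

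Against MCF10A, the libraries labelled MDA-MB-436 were led on the log2(normalised count + 1) scale by LINC00346, LINC00261, LINC00162 and LINC00526, each below 6 normalised counts in MCF10A. In that comparison 15 of the 43 LINC genes rose, against 25.6% of all genes, and 11 fell, against 23.7%. The median log2 change was 0.35 for the LINC genes and 0.00 for all genes. LINC00346 (PRECSIT, a p53-regulated RNA that acts on STAT3 in squamous carcinoma cells) stood at 5.62 and 3.44 in MCF10A and at 636 and 691 in the libraries labelled MDA-MB-436. The 2 pairs lay far apart, 174-fold (94.6 to 364), with a log2 change of 6.94 (SE 0.19, adjusted p = 1.27e-08, limma). LINC00261, which lies beside the endoderm factor gene FOXA2, stood at 1.87 and 0 in MCF10A and at 183 and 190 in the libraries labelled MDA-MB-436 (log2 change 6.79, SE 0.51, adjusted p = 4.94e-06). Its MCF10A value rests on 1 read, and the fold of pooled reads, 484, had an interval from 86.3 to 19159. LINC00162 (PICSAR, a squamous carcinoma RNA inhibited by p38) had no read in MCF10A and stood at 98.8 and 97.3 under the MDA-MB-436 label, at least 83.7-fold higher against a floor of 3 reads over the group (adjusted p = 9.50e-07). LINC00526, also with 1 read in MCF10A, stood at 1.87 and 0 against 138 and 170, 418-fold (74.5 to 16559). LINC00482 stood at 3.75 and 5.40 against 94.7 and 92.4. LINC00263 (OLMALINC, known from oligodendrocyte maturation) had a higher level in MCF10A, and it rose from 112 and 119 to 467 and 447, 3.84-fold (3.37 to 4.39).

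Among the genes that fell, LINC00473 and LINC00460 changed most on the log2(normalised count + 1) scale. LINC00473, a target of cAMP and CREB signalling, stood at 48.7 and 33.4 in MCF10A and had no read under the MDA-MB-436 label, at least 25.7-fold lower (log2 change -5.37, SE 0.30, adjusted p = 7.22e-07). LINC00460, an RNA often raised in carcinomas, stood at 487 and 474 in MCF10A and at 16.5 and 17.2 under the MDA-MB-436 label, 27.9-fold lower (20.1 to 40.1, adjusted p = 4.92e-09). LINC00313, LINC00520 and LINC00518 followed at low levels. LINC00313 stood at 24.3 and 26.5 against 0 and 1.23, LINC00520 at 30.0 and 23.1 against 2.06 and 0 (51.7-fold, 8.95 to 2074), and LINC00518 at 11.2 and 12.3 against 0 in both. Smaller falls were called for abundant members. LINC00116 fell 2.27-fold (2.08 to 2.48), LINC00094 2.39-fold (2.14 to 2.67) and LINC00294 2.28-fold (1.97 to 2.63), the last of which lost its call in limma's treat test against a 2-fold change. Among the 18 LINC genes with at least 10 normalised counts in all 4 libraries, 4 rose and 5 fell, against 21.2% and 20.8% of all genes under the same condition. Without a filter 28 of 104 LINC genes rose, and with a minimum of 50 normalised counts 6 of 26 fell. The shares of all genes at these other filters are not given here, so these counts cannot be set against them.

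Against MCF10A, the libraries labelled HT-29 shared the high LINC00346 and were otherwise led, on the log2(normalised count + 1) scale, by LINC00488, LINC00525 and LINC00173. In that comparison 19 of the 43 LINC genes rose, against 28.4% of all genes, and 7 fell, against 18.1%. The median log2 change was 0.72 for the LINC genes and 0.13 for all genes. LINC00346 stood at 596 and 584 under the HT-29 label, 151-fold above MCF10A (81.8 to 315, adjusted p = 2.09e-08). LINC00525 stood at 7.49 and 5.89 in MCF10A and at 242 and 265 under the HT-29 label, with no overlap (log2 change 5.05, SE 0.24, adjusted p = 3.23e-07). LINC00488 had no read in MCF10A and stood at 30.0 and 35.6 under the HT-29 label, at least 29.2-fold higher (adjusted p = 5.87e-06). The fold of pooled reads was larger for LINC00526 (60.8, 10.5 to 2442) and LINC00087 (42.8, 11.5 to 359) than for LINC00525 (41.6, 25.4 to 73.2), with overlapping intervals. LINC00173 stood at 0 and 2.45 against 60.0 and 55.8, and LINC00086 at 0 and 2.45 against 45 and 51.4. Some members with a higher level in MCF10A, which is the base of the fold, rose less. LINC00152 rose 2.94-fold (2.75 to 3.15), LINC00467 3.86-fold (3.39 to 4.41) and LINC00174 5.73-fold (4.44 to 7.49). LINC00174 also rose under the MDA-MB-436 label, 5.29-fold (4.07 to 6.94).

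Of the 7 genes that fell under the HT-29 label, LINC00493 (SMIM26) was the abundant one, 3.95-fold lower (3.69 to 4.23, adjusted p = 5.28e-08). LINC00265 fell 2.02-fold (1.67 to 2.44). The other 5 were LINC00313, LINC00319, LINC00511, LINC00514 and LINC00518, all under 30 normalised counts in both lines. LINC00313 stood at 24.3 and 26.5 in MCF10A and at 6.0 and 3.83 under the HT-29 label. LINC00265 and all of these low genes except LINC00319 lost the call under at least 1 alternative, so the count of 7 is fragile. It was 2 without the 25M MCF10A library, 4 when that library was left out with the same genes tested, 4 with the MCF10A libraries summed, and 3 with limma's treat test against a 2-fold change or a minimum of 50 normalised counts. The count of 19 became 39 of 104 LINC genes without a filter and 10 of 26 with that minimum, for which no share of all genes is given here. It was 11 without either library labelled HT-29, where fewer genes passed the filter. Among the 19 LINC genes with at least 10 normalised counts in all 4 libraries, 6 rose and 2 fell, against 18.8% and 18.3% of all genes under the same condition.

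The 2 labelled lines differed from each other in more LINC genes than either differed from MCF10A, though no test compared these counts. In the libraries labelled HT-29 against those labelled MDA-MB-436, 20 of the 43 LINC genes were higher, against 29.9% of all genes, and 14 were lower, against 23.5%. The median log2 change was 0.69 for the LINC genes and 0.09 for all genes. LINC00473 stood at 93.0 and 103 under the HT-29 label and had no read under the MDA-MB-436 label, at least 70.5-fold higher in the former (log2 change 6.63, SE 0.30, adjusted p = 1.95e-07). LINC00472 stood at 40.5 and 58.0, LINC00173 at 60.0 and 55.8 and LINC00488 at 30.0 and 35.6 under the HT-29 label, and none had a read under the MDA-MB-436 label. LINC00460 was high in both other lines and was 21.2-fold higher under the HT-29 label than under the MDA-MB-436 label (15.2 to 30.5, adjusted p = 7.83e-09). LINC00525 was 26.0-fold higher (16.9 to 42.3). The abundant LINC00094 was 4.36-fold higher (3.93 to 4.84).

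In the other direction, LINC00261 had no read under the HT-29 label and was at least 156-fold lower there (log2 change -7.55, SE 0.51, adjusted p = 2.40e-06). LINC00162 had 1 read under the HT-29 label and was 244-fold lower (43.2 to 9667). LINC00514 (GREP1) stood at 7.5 and 2.74 against 130 and 127. LINC00482 stood at 6.0 and 3.83 against 94.7 and 92.4. LINC00511, an RNA described in basal breast cancers, stood at 0 and 2.19 against 28.8 and 12.3. LINC00493 was 3.25-fold lower under the HT-29 label (3.02 to 3.49) and LINC00263 3.58-fold lower (3.15 to 4.09). LINC00346 did not pass the test in this comparison, at 596 and 584 against 636 and 691. The count of 20 became 34 of 104 LINC genes without a filter and 10 of 26 with a minimum of 50 normalised counts. It was 13 and 12 without the 25M and the deeper HT-29-labelled library. The count of 14 became 23 of 104 without a filter and 9 without either MDA-MB-436-labelled library. No share of all genes is given here for these alternatives. Among the 23 LINC genes with at least 10 normalised counts in all 4 libraries, 7 were higher and 7 lower, against 20.8% and 22.7% of all genes under the same condition.

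**Figure D3:**
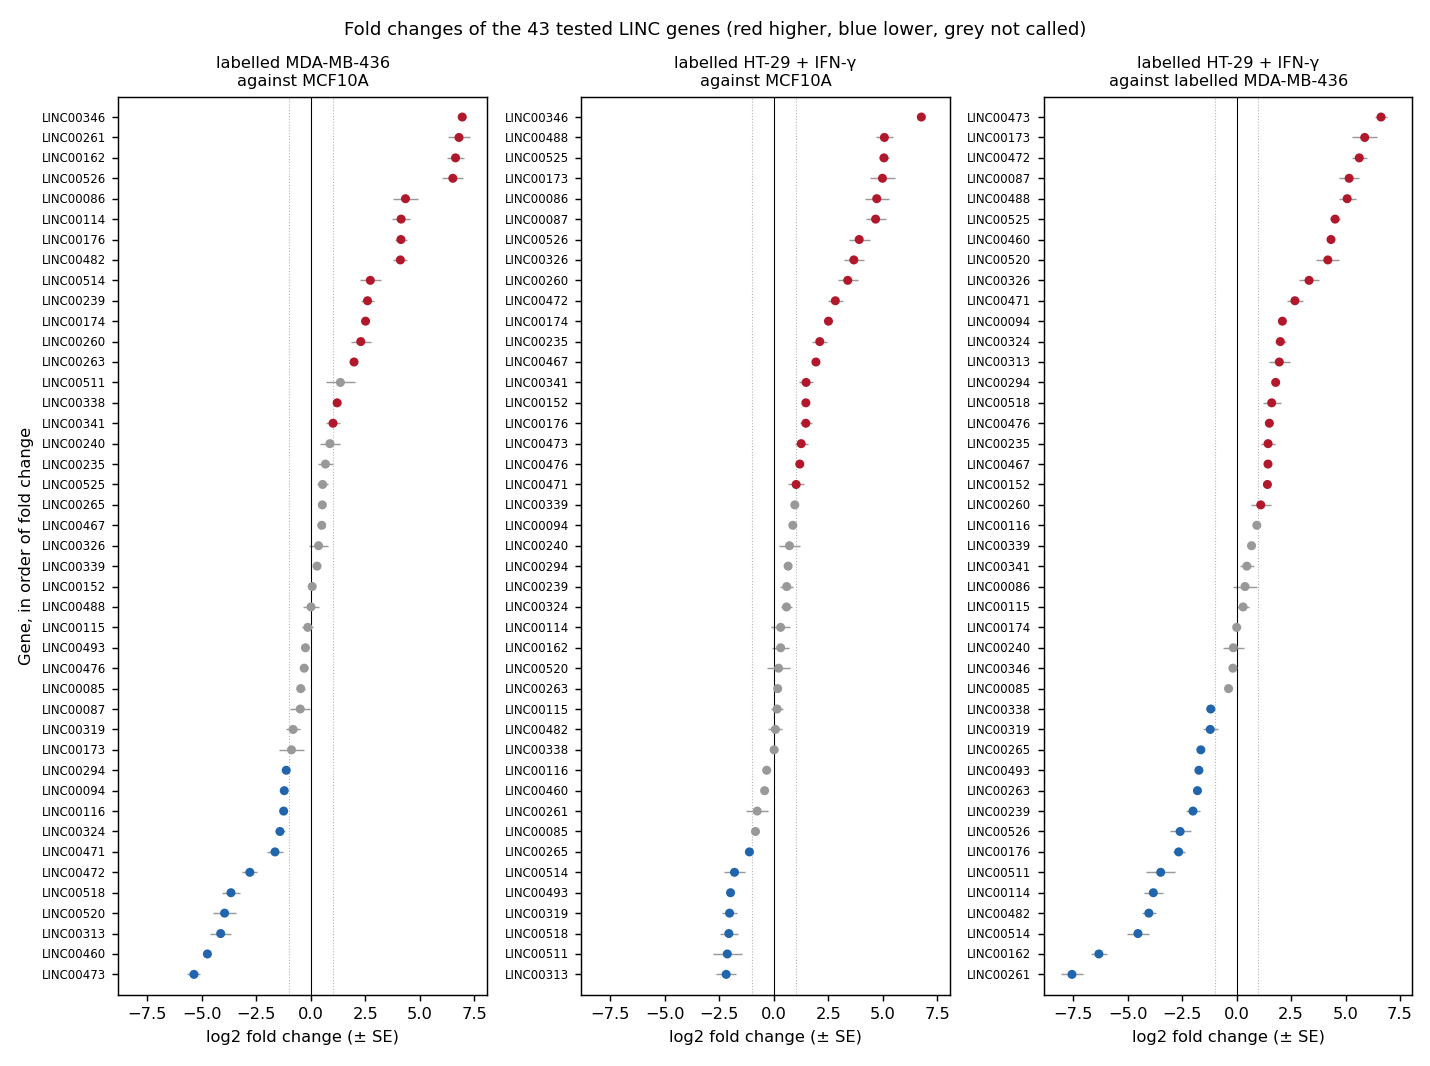
Log2 fold change with its standard error (horizontal axis) of the 43 tested LINC genes (vertical axis, ordered within each panel) in the 3 line comparisons; red points were called higher, blue lower, grey not called, and dotted lines mark a change of 1. LINC00346 lies at the top of both comparisons with MCF10A (6.94 and 6.77), and LINC00261 at the bottom of the third (-7.55).

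In either direction, 26 of the 43 LINC genes were called under the MDA-MB-436 label against MCF10A (49.2% of all genes), 26 under the HT-29 label against MCF10A (46.5%) and 34 between the labelled lines (53.4%). Across the 3 comparisons, 39 of the 43 tested LINC genes were called in at least 1 (72.7% of all genes) and 9 in all 3 (17.8%). In the counts that follow, the share of all genes stands in brackets, and genes that passed the filter through 1 line alone were set by it to be high there. The libraries labelled HT-29 were above both others for 13 genes (16.9%), among them all 8 that reached the minimum in that line alone, and including LINC00152, LINC00467, LINC00473 and LINC00525. Those labelled MDA-MB-436 were above both others for 10 (14.9%), 4 of which reached the minimum there alone, and including LINC00261, LINC00263, LINC00338 (SNHG20, a snoRNA host gene) and LINC00514. MCF10A was above both others for 2 (8.54%), LINC00313 and LINC00518, both of which reached the minimum in MCF10A alone. It was below both for 7 (12.7%), including LINC00346, LINC00174 and LINC00526. The libraries labelled MDA-MB-436 were below both others for 10 (15.2%), including LINC00094, LINC00294, LINC00460 and LINC00520, and those labelled HT-29 for 5 (8.1%), including LINC00493 and LINC00265. No call was made in any comparison for LINC00085 (SPACA6), LINC00115, LINC00240 and LINC00339. LINC00339 stood at 232 and 189 in MCF10A, 414 and 406 under the HT-29 label, and 249 and 259 under the MDA-MB-436 label, so its line means still spanned 0.96 on the log2 scale. LINC00085 spanned 0.83, the smallest range among LINC genes with at least 50 normalised counts in every library. It stood at 112 and 132 in MCF10A, 76.5 and 59.6 under the HT-29 label, and 84.4 and 90.5 under the MDA-MB-436 label. LINC00240 stood between 5.40 and 22.6 in the 6 libraries.

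A LINC gene was described as restricted to a line where that line held at least 95% of the summed line means, at least 10 reads and a read in both libraries. The class is cut from the measured levels and carries no test. It held 8 genes under the HT-29 label (5.42% of all rows with a read met the rule there), 5 under the MDA-MB-436 label (2.58%) and none in MCF10A (0.959%). Those under the HT-29 label were LINC00173, LINC00488, LINC00087, LINC00326, LINC00466, LINC00264 (FAM238A), LINC00535 (CIBAR1-DT) and LINC00461 (MIR9-2HG, which hosts a precursor of the neural microRNA miR-9). LINC00173 had 40 and 102 reads there, 0 and 5 in MCF10A and none under the MDA-MB-436 label. LINC00488 had 20 and 65 reads under the HT-29 label and none in the other 4 libraries. LINC00461 had 2 and 13 reads and none elsewhere. Its level, like those of LINC00466, LINC00264 and LINC00535, lay between 3 and 9 normalised counts, too low for the tests above.

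Under the MDA-MB-436 label the restricted genes were LINC00261, LINC00162, LINC00114, LINC00483 (ANKRD40CL) and LINC00479. LINC00483 and LINC00479 were too low for the tests above. LINC00261 had 89 and 308 reads there, 1 and 0 in MCF10A and none under the HT-29 label. LINC00162 had 48 and 158 reads, and 1 read in the deeper library labelled HT-29. LINC00114 had 8 and 27 reads, and likewise 1 in that library. The genes just inside the share rule were LINC00479, with 95.2% of its level under the MDA-MB-436 label, and LINC00326, with 97.5% under the HT-29 label. Just outside were LINC00189, with 94.0% under the MDA-MB-436 label, and LINC00478 (MIR99AHG), with 90.5% in MCF10A. With a rule of 0 reads elsewhere, 5 genes were left under the HT-29 label and 1 under the MDA-MB-436 label, and from the 25M libraries alone 3 and 2 were found.

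**Figure D4:**
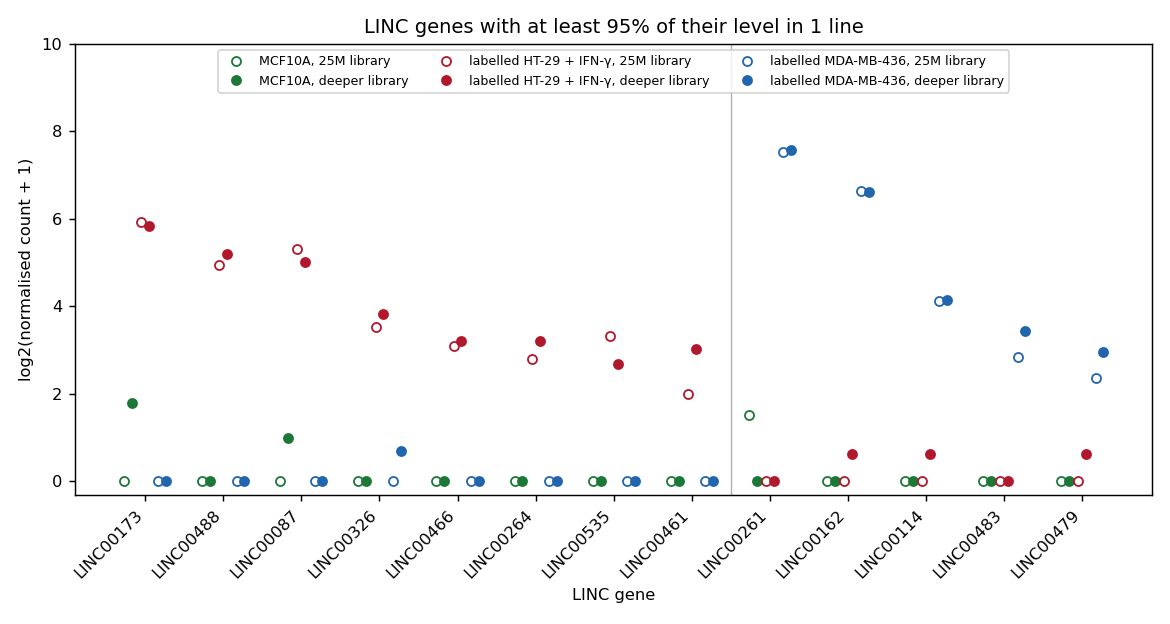
Level of the 13 restricted LINC genes (horizontal axis, 8 under the HT-29 label to the left of the grey line and 5 under the MDA-MB-436 label to its right) as log2(normalised count + 1) (vertical axis); open points are 25M and filled points deeper libraries. Outside the main line every point lies below 2, and rests on at most 5 reads.

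The coding genes on either side of the restricted LINC genes, by order in RefSeq (GRCh38.p14), were examined for the same line. A row was found for 22 such neighbours of 12 LINC genes. The mean was highest in the LINC gene's own line for 8 of 12 neighbours under the HT-29 label and 4 of 10 under the MDA-MB-436 label. Of the 17048 coding genes with a read, 38.9% and 33.3% were highest there, while the 10 neighbours include WFIKKN2, which had no read. The count of 8 includes near-ties with MCF10A and genes near the floor. RPS12, PDSS1, ATG4C and CIBAR1 (FAM92A1) were not called above MCF10A (log2 changes 0.06, 0.10, 0.47 and 0.58). APBB1IP and DPPA2 were too low to test. FOXA2, an endoderm transcription factor beside LINC00261, stood at 613 and 639 under the MDA-MB-436 label, 34.5 and 26.8 under the HT-29 label and 13.1 and 4.91 in MCF10A. TMPRSS2, a membrane serine protease beside LINC00479, stood at 910 and 985 under the MDA-MB-436 label, 10.5 and 10.9 under the HT-29 label and 1.87 and 0.982 in MCF10A. ETS2, a transcription factor beside LINC00114, stood at 9507 and 9745 under the MDA-MB-436 label, 1803 and 1806 under the HT-29 label and 3095 and 3239 in MCF10A. FOXD3, a neural crest factor beside LINC00466, stood at 119 and 160 under the HT-29 label and had no read in the other 4 libraries. MEF2C, beside LINC00461, stood at 18.0 and 21.9 under the HT-29 label, 4.12 and 10.5 under the MDA-MB-436 label and 0 in MCF10A. Other neighbours went another way. PAX1, on the other side of LINC00261, and ERG, on the other side of LINC00114, had reads only under the HT-29 label, at 10.5 and 10.4 and at 15.0 and 18.6. MED13L and MAP1LC3B2, on either side of LINC00173, were highest under the MDA-MB-436 label. DPPA2, beside LINC00488, stood at no more than 1.5 in any library. These are levels side by side, and no link between a LINC gene and its neighbour was tested.

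Of 26 LINC symbols chosen for a published role, 17 had a row, and LINC00665, LINC00668, LINC00657, LINC00998, LINC01420, LINC00673, LINC00675, LINC00857 and LINC00704 were not analysed here. Besides those already described, LINC00092 had 2 reads, both in the deeper library labelled HT-29.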

How the data were processed

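The deposited values are normalised counts and RPKM per gene, per the file headers. Per the submitters' processing notes, FastQC, STAR 2.2.0, HTSeq and the hg19 build were used, while the sources used here give neither the normalisation method nor the strand setting. The normalised signal in each deposited column was a whole multiple of 1 step, so whole reads were recovered by division (100.0% of values whole within 0.001). The RPKM that the authors deposited served for implied gene lengths only: the RPKM column has 1598 rows in which a zero goes with a non-zero count, but none among the LINC rows, and 91 of 91 LINC rows with reads in 2 or more libraries were in register within 1%. Of 23368 rows, 28 with date-like names were left out, among them the 4 with repeated names.

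Lines were compared with limma 3.58.1 (R 4.3.3; trend and robust prior) on log2(normalised count + 1) over all 6 libraries, with 3 residual degrees of freedom, for the 15638 genes with at least 10 normalised counts in at least 2 libraries and Benjamini-Hochberg adjustment over all of them. Alternatives were edgeR 4.0.16 and DESeq2 1.42.0 on the recovered reads, other scalings, filters and pseudocounts, and each library left out. The pipeline was tested on simulated data. Intervals are exact at 95%.

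The genes named are the 6 highest in each line, the 8 largest calls in each direction without overlap, the restricted genes, the 5 steadiest, a panel with published roles, and neighbours of restricted genes. Genes named only to complete a short list or next to a threshold (LINC00115, LINC00189, LINC00315, LINC00478 and coding entries without values) were chosen after their values were seen. The members and lists were chosen with earlier results of these data known.

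The depth label did not pair the libraries: the deeper-minus-25M deviations of the lines correlated at -0.0028, 0.0073 and 0.028 across genes. The 2 libraries of each line differed beyond sampling noise, and all were kept as separate libraries. The genes above 3.84 in chi-square were 8.14% in MCF10A, 14.0% under the HT-29 label and 13.4% under the MDA-MB-436 label. Summed markers of leukocytes reached 37893 and 38117 normalised counts in the libraries labelled MDA-MB-436, nearly all from LYZ, and CD3E was at 0 there.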

Additional observations from a re-analysis of the deposited data

How the results depend on the processing

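Of 75 called values of named LINC genes, 16 lost the call under at least 1 alternative and 0 reversed. LINC00471 in the libraries labelled HT-29 against MCF10A lost it most often, in 13 settings. Changing the scaling, pseudocount or tool moved no count of called LINC genes by over 1.5 times. Library size alone raised the median log2 change of all genes from 0.13 to 0.44 in the libraries labelled HT-29 against MCF10A and from 0.09 to 0.43 in the HT-29 against MDA-MB-436 comparison. Filters mattered by changing the genes tested. Without a filter, 104 LINC genes were tested. Of these, 28 rose under the MDA-MB-436 label and 39 under the HT-29 label against MCF10A. Between the labelled lines 34 were higher and 23 lower. With a minimum of 50 normalised counts, 26 LINC genes were tested. Of these, 6 fell under the MDA-MB-436 label, 10 rose and 3 fell under the HT-29 label, and 10 were higher between the labelled lines. The shares of all genes called at these filters are not given here. The treat test left 3 falls under the HT-29 label, and summing the MCF10A libraries left 4. Leaving out each library in turn gave 10 to 15 rises and 9 to 11 falls (MDA-MB-436 label against MCF10A), 11 to 20 and 2 to 7 (HT-29 label against MCF10A), and 12 to 20 and 9 to 14 (between the labelled lines). With the genes tested held fixed, an alternative added after seeing the data, the ranges were 14 to 15 and 11 to 13, 17 to 20 and 4 to 8, and 18 to 20 and 14 to 14. Also added later, the members not listed as coding gave 12 and 9, 17 and 5, and 19 and 11, with 7 of the 43 tested LINC genes left out as coding. With the read depth label as a replicate block, the counts were 15 and 11, 19 and 7, and 19 and 14; the samples share only that label.

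Restricted genes under the HT-29 label numbered 5 at a 99% share, 5 with 0 reads elsewhere, 3 at 50 reads and 3 in the 25M libraries; under the MDA-MB-436 label 3, 1, 2 and 2. MCF10A had 1 at a 90% share and 1 in the deeper libraries. At 10 reads, 20 and 31, 31 and 41, and 24 and 37 LINC genes were detected. Low levels limit all of this: 61 of 104 detected LINC genes fell below the filter, which was set on normalised counts and not on reads.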

Other observations

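Long non-coding RNAs with other names showed changes in both directions. Of 33 listed, 30 had a row and 28 were tested. Under the MDA-MB-436 label 12 rose and 4 fell against MCF10A (25.6% and 23.7% of all genes), and under the HT-29 label 6 rose and 7 fell (28.4% and 18.1%). Under the HT-29 label against the MDA-MB-436 label, 6 were higher and 11 lower (29.9% and 23.5%). Examples of large differences follow, and they do not stand for the list. Others, among them SNHG3, GAS5, DLEU2 and MIR17HG, had no call in any comparison. NEAT1, the paraspeckle RNA, stood at 2547 ± 79.0 (SD, n = 2) normalised counts in MCF10A, 10049 ± 229 under the HT-29 label and 42879 ± 345 under the MDA-MB-436 label. H19, an imprinted RNA, stood at 322 ± 10.1 in MCF10A, 28.1 ± 4.86 under the HT-29 label and 5.65 ± 5.08 under the MDA-MB-436 label. HOTAIR, from the HOXC cluster, stood at 21.1 ± 2.0, 18.1 ± 2.26 and 529 ± 9.16 in the same order, and UCA1, first described in urothelial cancer, at 0.736 ± 1.04, 0.547 ± 0.774 and 182 ± 3.57.

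Of 149 genes named as antisense, 77 were tested. Against MCF10A, 37 rose and 13 fell under the MDA-MB-436 label (25.6% and 23.7% of all genes), and 35 rose and 6 fell under the HT-29 label (28.4% and 18.1%). Between the labelled lines 24 were higher and 23 lower under the HT-29 label (29.9% and 23.5%). Reads of such genes cannot be told from those of their sense partners without strand.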
